A study of Mus musculus with 18 samples.

Results

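The interferon-inducible genes are those that cells switch on after an interferon binds its receptor. A list of 49 such mouse genes was matched by exact symbol to the probe sets of the array, with each gene represented by its probe set of highest mean over all arrays. Of the 49 genes, 45 had a probe set of their own, out of 18193 genes on the array. The chosen probe set of 32 members varied by at least 0.01 over the 18 arrays, and these are called the measured members. The other 13 had 1 constant value on all arrays to within that limit, which gives no information on them. They were Ifit3, Oas2, Oas3, Oasl1, Mx1, Mx2, Ddx58, Dhx58, Irf7, Stat2, Dtx3l, Irgm1 and Irf8. Isg15 and Gbp4 lie only on probe sets with several gene symbols, and Ifi44 and Trim30 matched no probe set by symbol. Those 4 members were not analysed here.

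RNA of dorsal skin from male, 6-week-old mice of the albino hairless strain HR-1 was measured on 18 Affymetrix mouse arrays, 6 from each of 3 groups. NT skin was not stripped. In TS mice the skin barrier was broken by cellophane tape in 3 sessions a week over 4 weeks, each stopped once transepidermal water loss had reached 70 to 100 g/m2/h. WB mice were stripped likewise and were dosed orally with winged bean extract at 200 mg/kg/day in 0.3% carboxymethylcellulose, 5 times a week for 5 weeks, of which the first preceded the stripping. The labels do not say whether NT and TS mice received the vehicle. Values are the deposited ones, read as log2, so that a difference of 1 is a 2-fold change. A gene rose or fell only where the limma fit of all arrays gave an adjusted p under 0.05 and a difference of at least 0.01. The median of the table was 6.93, and folds are given only where both means lie above it. Arrays carry no count depth, and their number limits the precision.

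Type I interferons signal through a receptor whose kinases activate a complex that holds STAT2 and IRF9. It binds the interferon-stimulated response element (ISRE) and turns on antiviral genes such as the Ifit, Oas and Mx families. Interferon gamma uses a separate receptor, and its signal acts at the gamma-activated site (GAS). Among its best known targets are GTPases that attack intracellular microbes (the Gbp and Irg families), the immunoproteasome and the peptide transporter that loads MHC class I molecules. Many genes answer to both signals, so the division used here, 35 type I members, 12 gamma-class members (GTPases and antigen processing) and Irf1 with Irf8, is one of emphasis.

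Promoter sequence shows how the classes share these elements. The RefSeq promoter table (GRCm38.p6, 250 bases before to 50 after each start) held 33 of the 49 members. An ISRE core, GAAA and GAAA with any 2 bases between them, read on both strands, lay in 16 of these 33 (48.5%) against 3.99% of 27025 genes in the table. They were found in 11 of 23 type I members (47.8%) and 5 of 8 gamma-class members (62.5%). The letters TTCNNNGAA, a GAS core that reads the same on both strands, lay in 10 of 33 (30.3%) against 9.55% of all genes, with 5 of 23 in the type I and 3 of 8 in the gamma class. In Bst2 and Ifitm3 matches to the 2 motifs overlap. A match is a description of letters and not a binding site.

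The 150 bases before the start of 6 members that fell in stripped skin are shown because they span both motifs and both classes, from the antiviral Ifit1 through the GTPases Gbp2, Gbp7 and Igtp to the immunoproteasome subunit Psmb8 and the transcription factor Irf1. Each reads 5′ to 3′ on the gene's strand, and capitals mark the motif matches.
Ifit1, chr19:34640739-34640888, plus strand: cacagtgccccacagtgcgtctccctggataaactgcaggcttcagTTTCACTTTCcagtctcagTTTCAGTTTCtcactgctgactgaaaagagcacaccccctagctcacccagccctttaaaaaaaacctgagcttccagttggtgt
Gbp2, chr3:142620513-142620662, plus strand: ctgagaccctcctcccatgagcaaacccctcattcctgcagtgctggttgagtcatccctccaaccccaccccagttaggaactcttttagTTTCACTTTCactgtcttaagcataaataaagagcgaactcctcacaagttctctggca
Gbp7, chr3:142530186-142530335, plus strand: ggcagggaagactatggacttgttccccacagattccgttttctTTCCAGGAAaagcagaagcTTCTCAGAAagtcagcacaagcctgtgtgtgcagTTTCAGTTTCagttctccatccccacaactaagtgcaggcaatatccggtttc
Igtp, chr11:58199406-58199555, plus strand: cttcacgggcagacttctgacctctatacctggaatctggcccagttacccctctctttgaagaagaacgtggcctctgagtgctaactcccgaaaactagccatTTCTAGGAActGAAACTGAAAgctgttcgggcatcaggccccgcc
Psmb8, chr17:34198045-34198194, plus strand: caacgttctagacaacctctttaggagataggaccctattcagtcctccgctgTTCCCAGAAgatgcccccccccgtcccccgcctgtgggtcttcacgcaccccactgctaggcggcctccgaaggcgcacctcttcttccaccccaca
Irf1, chr11:53769864-53770013, plus strand: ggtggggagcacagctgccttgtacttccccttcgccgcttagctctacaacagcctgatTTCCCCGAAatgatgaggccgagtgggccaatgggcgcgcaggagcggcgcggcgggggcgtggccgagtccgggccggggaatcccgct
Ifit1 carries 2 ISRE cores, first bases at -104 and -85 from its start, while Psmb8 and Irf1 carry 1 GAS core each, at -97 and -90. Gbp7 and Igtp hold both kinds. Psmb9 and Tap1 lie head to head on chromosome 17 with 226 bases between their starts, and neither motif occurs in their windows.

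Control probe sets at both ends of the beta-actin transcript report how far labelled RNA reaches from the 3' side. Expressed as the 3' minus the 5' signal, it was -0.51 ± 0.10 (SD, n = 6) in NT, 0.16 ± 0.07 in TS and 5.69 ± 0.25 in WB. TS exceeded NT by 0.66 and WB exceeded TS by 5.53 (two-sided exact permutation tests, both with the smallest p possible for 6 against 6, 0.00216, and an adjusted p of 0.00278 over 9 array comparisons). The extract and this shift of the RNA control cannot be told apart, since all 6 WB arrays carry it. Epidermal and dermal markers were present in NT, with Krt14, a basal keratinocyte keratin, at a mean of 13.47 and Krt10, a suprabasal one, at 13.54. The fibroblast markers Col1a2 and Dcn had NT means of 14.17 and 13.94. An NT array also carried liver transcripts, with the summed liver markers of the NT arrays ranging from 9.05 to 19.61. Leaving out any 1 array kept 26 to 29 of the 29 falls given next.

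TS and NT mice differ, by the labels, in the repeated stripping. Interferon-inducible transcripts were lower in stripped skin across both classes. Of the 45 members on the array, 29 fell and 1, Ifitm1, rose, where 7.93% of all genes on the array fell and 7.27% rose. Among genes that varied at all these shares were 21.1% and 19.3%. The falls ran from 0.14 for Oas1a to 3.31 for Ifi27l2a, with a median difference of -0.72 over the 32 measured members and 0.00 over the measured genes of the whole array. In the type I class 19 of 32 on the array fell and 1 rose (median -0.68), and in the gamma class 9 of 11 fell and none rose (median -1.06). The lowest NT array lay above the highest TS array for 19 members, against 5.13% of all genes, and the reverse held for Ifitm1, against 4.68%. Fewer cells of a type and less RNA per cell cannot be told apart in whole skin.

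**Figure D1:**
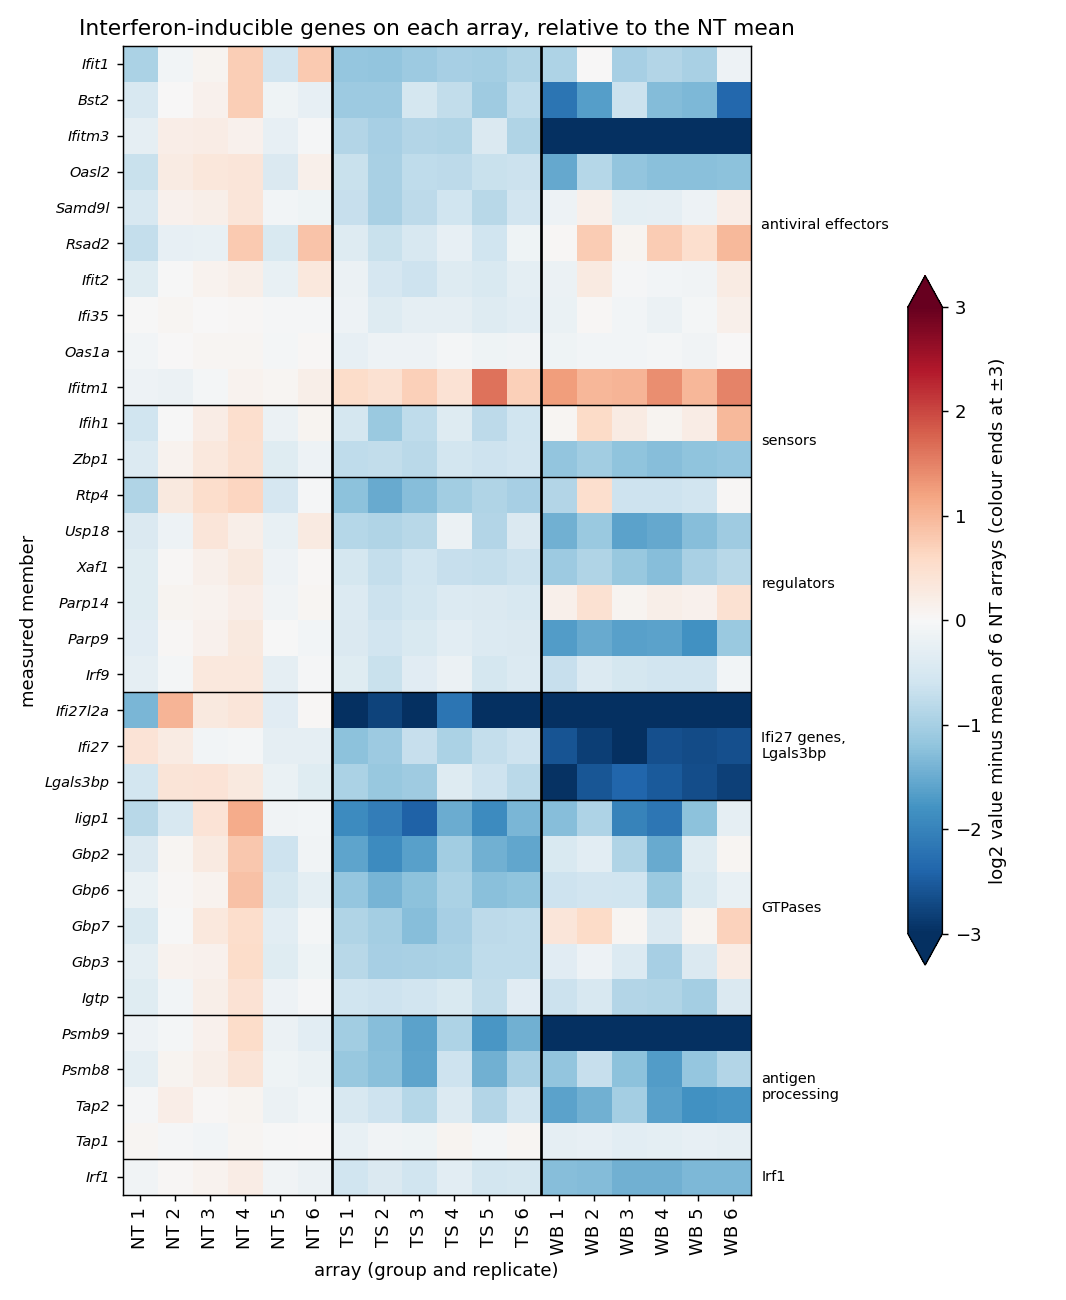
Each row is a measured member and each column an array, with colour giving the log2 value minus the mean of the 6 NT arrays, and rows grouped by role. TS columns are mostly blue and red for Ifitm1, while WB columns hold both colours, with Ifitm3, Psmb9 and Ifi27l2a the lowest.

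The deepest fall was that of Ifi27l2a, a small membrane protein of the ISG12 family. Its NT arrays lay at 11.34, 12.86 and 13.72 (lowest, median, highest) and its TS arrays at 8.70, 9.22 and 10.52. The groups do not overlap, and the fall of 3.31 (SE 0.37) is 9.89-fold (limma adjusted p = 2.57e-05). Its relative Ifi27 lay at 10.63, 10.83 and 11.32 in NT and at 9.65, 10.07 and 10.27 in TS, a fall of 0.88 (SE 0.14). A further probe set of Ifi27 fell by 1.02 (SE 0.14). Lgals3bp, a secreted glycoprotein that binds galectins, lay at 8.96, 9.56 and 9.93 in NT and at 8.38, 8.63 and 9.12 in TS, so that the groups overlap, and fell by 0.83 (SE 0.18).

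**Figure D2:**
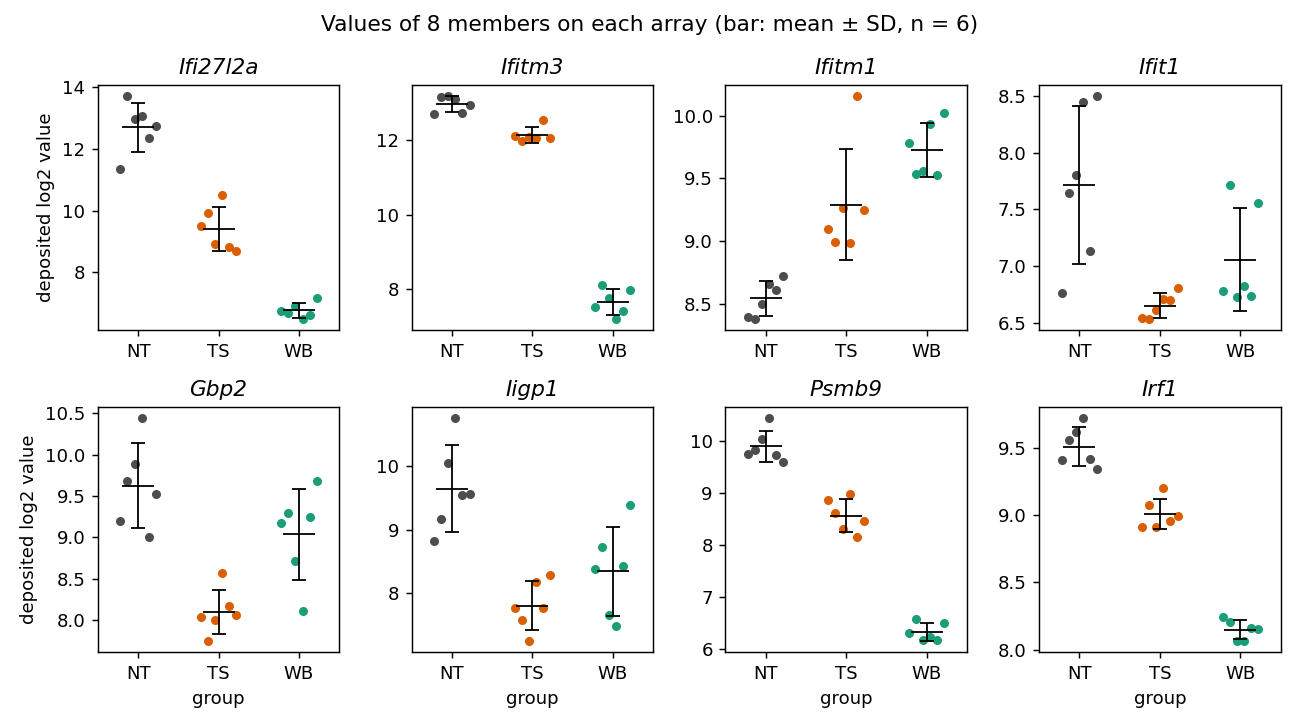
Deposited log2 values of 8 members on every array, by group, with bars for the mean ± SD (n = 6). Ifi27l2a, Psmb9 and Irf1 step down from NT to TS to WB, Ifitm1 steps up, and Iigp1 and the chosen probe set of Gbp2 are lowest in TS. The other varying probe set of Gbp2, not shown, is lowest in WB (mean 7.03, against 8.66 in TS).

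GTPases of the gamma class fell in 6 of 7 members on the array, with Irgm1 constant. Iigp1, an Irg GTPase that strips the vacuoles of intracellular parasites, lay at 8.82, 9.55 and 10.77 in NT and at 7.23, 7.76 and 8.28 in TS. It fell by 1.86 (SE 0.35), or 3.62-fold, and its further probe set fell by 1.70 (SE 0.30). Gbp2, a guanylate-binding protein that coats such vacuoles, lay at 9.004, 9.60 and 10.44 in NT and at 7.75, 8.05 and 8.57 in TS. Its fall of 1.53 (SE 0.27) is 2.88-fold, and a second probe set fell by 1.05 (SE 0.19). Gbp6 fell by 1.20 (SE 0.20) from 7.89, 8.33 and 9.29 in NT to 7.01, 7.18 and 7.46 in TS. No TS array reached an NT array for Iigp1, Gbp2, Gbp6, Gbp7 or Gbp3. Gbp7 fell by 0.96 (SE 0.19; further probe set 0.70), Gbp3 by 0.88 (SE 0.18) and Igtp by 0.56 (SE 0.13).

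Antigen processing members fell in 3 of 4. Psmb9, a catalytic subunit that replaces its constitutive counterpart in the immunoproteasome, lay at 9.59, 9.80 and 10.44 in NT and at 8.16, 8.54 and 8.98 in TS. The fall of 1.34 (SE 0.16) is 2.52-fold (limma adjusted p = 4.12e-05). Psmb8, another such subunit, lay at 9.77, 10.04 and 10.46 in NT and at 8.50, 8.87 and 9.46 in TS, a fall of 1.17 (SE 0.18). Tap2, a chain of the peptide transporter into the endoplasmic reticulum, fell by 0.64 (SE 0.12), and its groups were separate as well. Tap1, the partner of Tap2 and the head-to-head neighbour of Psmb9, lay at 8.19, 8.29 and 8.34 in NT and at 8.05, 8.19 and 8.36 in TS. Its difference of -0.07 (SE 0.05) did not pass (adjusted p = 0.445).

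Among the antiviral effectors 8 of 16 fell, 1 rose and Rsad2 did not pass, with 6 constant. Ifit1, which binds viral RNA lacking the host cap, lay at 6.77, 7.72 and 8.50 in NT and at 6.54, 6.66 and 6.81 in TS, with NT 1 inside the TS range. Its fall of 1.06 (SE 0.28) has a lower mean under the table's median. Ifit2 fell by 0.41 (SE 0.12). Of the oligoadenylate synthetase family, whose products activate RNase L, Oasl2 fell by 0.75 (SE 0.17) and Oas1a by 0.14 (SE 0.03). The TS mean of Oasl2 also lies under the table's median. Bst2 (tetherin), which holds budding virions on the cell, fell by 0.88 (SE 0.26), and Samd9l, an inhibitor of translation, by 0.74 (SE 0.13). Ifi35 fell by 0.30 (SE 0.06) from 10.26, 10.30 and 10.37 to 9.91, 10.01 and 10.14, and a further probe set also by 0.30 (SE 0.07). Rsad2 (viperin) differed by -0.42 (SE 0.26, adjusted p = 0.398).

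Ifitm1 and Ifitm3 are neighbouring genes for small membrane proteins that block virus entry, and they moved apart. Ifitm3 lay at 12.70, 13.01 and 13.18 in NT and at 11.96, 12.07 and 12.54 in TS, and fell by 0.83 (SE 0.15). Ifitm1 lay at 8.38, 8.55 and 8.72 in NT and at 8.98, 9.17 and 10.16 in TS, and rose by 0.75 (SE 0.17, adjusted p = 0.00637). Array TS 5 was the highest TS array for both genes. Without it the rise of Ifitm1 was 0.57 (SE 0.10, adjusted p = 0.00148) and the fall of Ifitm3 was 0.91 (SE 0.15).

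Of 4 sensors on the array 2 fell, with Ddx58 and Dhx58 constant. Zbp1, which senses Z-form nucleic acid, fell by 0.68 (SE 0.13) and Ifih1, the double-stranded RNA sensor MDA5, by 0.70 (SE 0.19). Of 9 regulators on the array 6 fell, with Irf7, Stat2 and the chosen probe set of Dtx3l constant. Beside these counts, 7.93% of all genes fell (21.1% of genes that varied). Rtp4, a chaperone of membrane receptors, lay at 7.77, 8.79 and 9.33 in NT and at 7.16, 7.53 and 7.76 in TS, a fall of 1.16 (SE 0.28). Usp18, which removes ISG15 from proteins and dampens the type I receptor, fell by 0.68 (SE 0.16), and Xaf1, a promoter of apoptosis, by 0.65 (SE 0.09). The ADP-ribosyltransferase family members Parp14 and Parp9 fell by 0.49 (SE 0.09) and 0.44 (SE 0.11), and the only varying probe set of Dtx3l, the ubiquitin ligase partner of Parp9, fell by 0.26 (SE 0.07).

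Of the transcription factors, Irf1, which drives many gamma-induced genes, lay at 9.34, 9.49 and 9.72 in NT and at 8.91, 8.97 and 9.20 in TS. The groups do not overlap, and the fall was 0.50 (SE 0.07, limma adjusted p = 9.67e-05). Irf9, the DNA-binding part of the type I complex, lay at 7.97, 8.19 and 8.56 in NT and at 7.57, 7.85 and 8.06 in TS, with a fall of 0.42 (SE 0.13, adjusted p = 0.0335). The varying probe set of Irf8, a factor of myeloid and dendritic cells, fell by 0.60 (SE 0.15), while its chosen probe set is constant. The falls of 3 members depended on single arrays. Irf9 did not pass with WB left out of the fit (adjusted p = 0.0543), nor without NT 3 (0.0796), NT 4 (0.0809), NT 6 (0.0511), TS 1 (0.0505), TS 2 (0.081), TS 5 (0.067) or TS 6 (0.0557). Bst2 did not pass without NT 2 (adjusted p = 0.058), NT 3 (0.0638), NT 4 (0.0777), TS 1 (0.0673), TS 2 (0.0689) or TS 5 (0.0627). Ifit2 did not pass without NT 3 (adjusted p = 0.0584), NT 4 (0.0639), NT 6 (0.0614), TS 2 (0.0584) or TS 3 (0.0628).

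**Figure D3:**
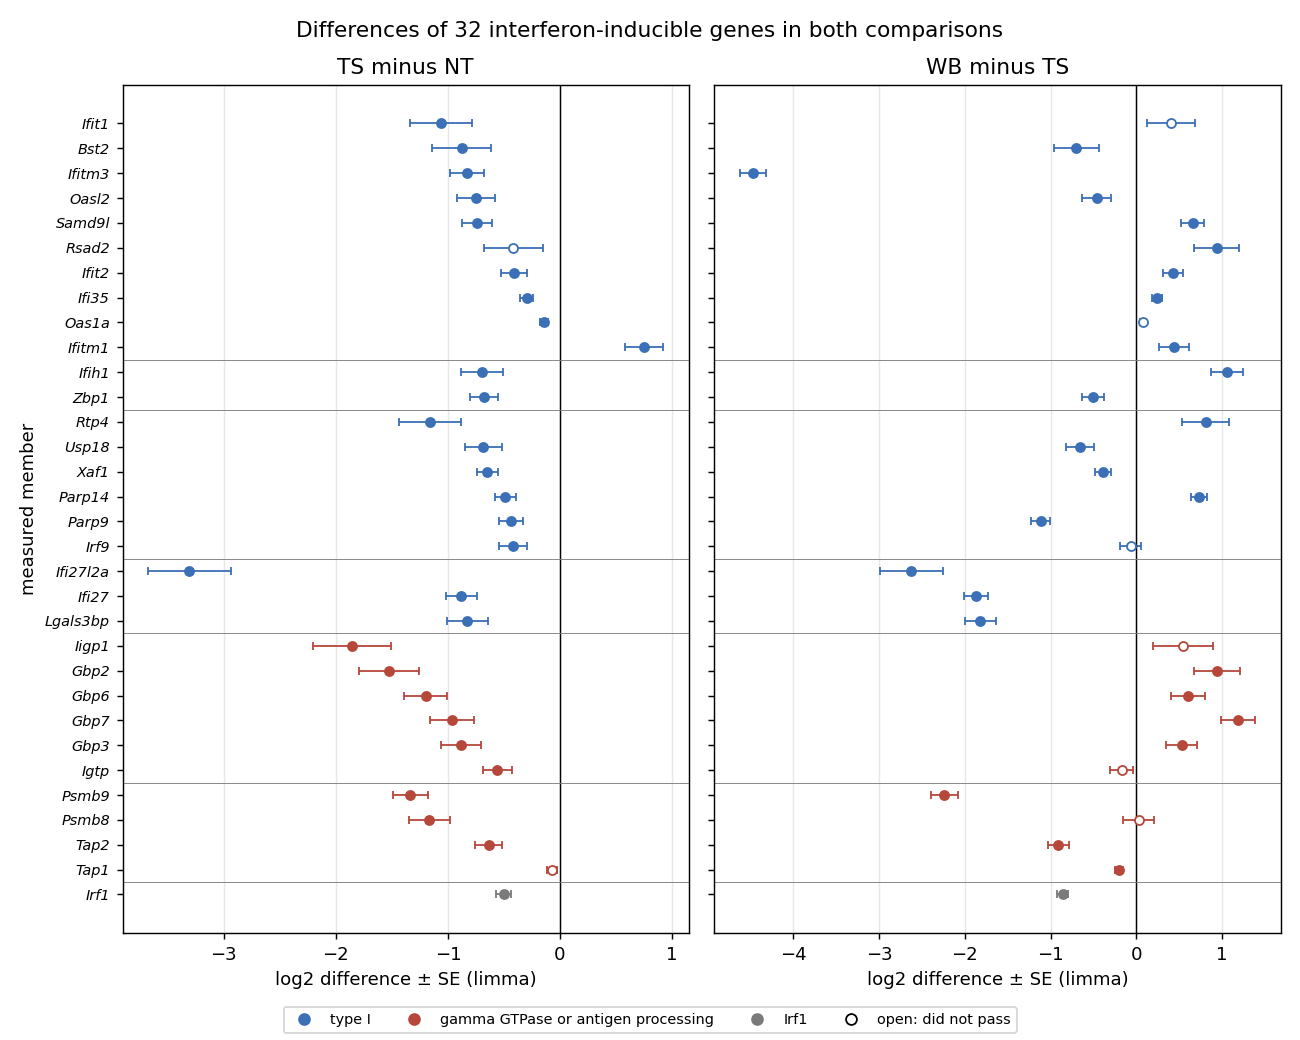
Log2 differences with limma SE for the 32 measured members, TS minus NT on the left and WB minus TS on the right, ordered by role; open points did not pass. All points but Ifitm1 lie left of 0 on the left. On the right the Gbp genes, by their chosen probe sets, lie right of 0 and Psmb9, Tap2, the Ifi27 genes and Ifitm3 left of it. Both panels share the TS arrays.

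Members varied together among the unstripped mice, and also within TS and WB. Array NT 4 was the highest NT array for 19 of the 32 measured members, where it was highest for 14.7% of all measured genes, and NT 1 was the lowest for 22, against 25% of them. Array TS 4 was the highest TS array for 15 members, against 22.6% of measured genes, and TS 2 the lowest for 16, against 20.5%. Array WB 6 was the highest WB array for 18, against 27.5%, and WB 4 the lowest for 11, against 16%. The SD was larger in NT than in TS for 25 of 32 members, while this held for 34.3% of measured genes. It was larger in WB than in TS for 21 members, against 44.3% of measured genes. The mean level of the 21 measured type I members ran from 8.54 on NT 1 to 9.32 on NT 4, and from 8.11 on TS 2 to 8.43 on TS 4. The mean of the 10 gamma-class members ran from 8.74 on NT 1 to 9.58 on NT 4, and from 7.82 on TS 3 to 8.27 on TS 4. For these means the lowest NT array stayed above the highest TS array in both classes.

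**Figure D4:**
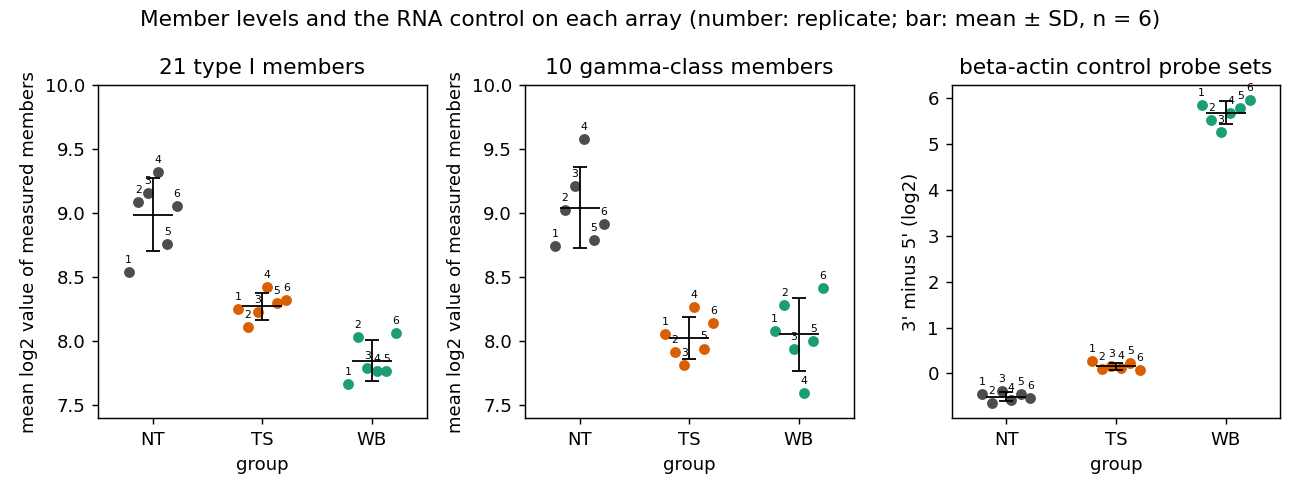
Mean log2 value of the 21 measured type I and 10 measured gamma-class members on each array, and the beta-actin 3' minus 5' control difference, with bars for mean ± SD (n = 6) and replicate numbers beside the points. NT 4 is the highest array in both classes, and WB arrays stand near 5.69 in the control, far from NT and TS.

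Other genes of the pathway showed where the falls extended. Among 128 further pathway genes, 95 were on the array and 23 fell (24.2%, against 7.93% of all genes) while 1 rose. The 7 interferon genes themselves, such as Ifnb1 and Ifng, had constant probe sets and give no information. Of 9 receptor chains and kinases 1 fell and none rose. Ifnar2, a type I receptor chain, differed by -0.17 (SE 0.06, adjusted p = 0.0698) and Ifngr1, a gamma receptor chain, by -0.11 (SE 0.07, adjusted p = 0.466). Ifnar1 and Ifngr2 were constant. Of 17 other antigen processing genes 9 fell and none rose, and the smallest p-values were those of the loading factor tapasin (Tapbp, -0.69, SE 0.08), the immunoproteasome subunit Psmb10 (-0.73, SE 0.09) and the MHC class I light chain B2m (-0.46, SE 0.08). Of 43 other inducible genes 12 fell and none rose.

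Markers of several cell types also moved, in both directions. Beside their counts, 7.93% of all genes fell and 7.27% rose (21.1% and 19.3% of genes that varied). Of 13 macrophage markers 8 fell and 1 rose, and their summed level lay between 15.37 and 15.88 in NT and between 14.78 and 15.39 in TS. Of 12 Langerhans and dendritic cell markers 6 fell and none rose (14.04 to 14.58 in NT, 13.48 to 14.09 in TS). This list shares H2-Aa, H2-Ab1 and Cd74 with the other antigen processing genes above, so it is no separate readout. Their NT means were 12.02, 11.93 and 12.62, and H2-Ab1 and Cd74 are among the falls. Of 11 T and NK cell markers 3 fell and none rose (10.66 to 10.93, then 10.45 to 10.61), with Cd3e, Cd4 and Cd8a constant. Suprabasal keratinocyte markers rose in 7 of 10 and fell in none (15.58 to 16.07, then 16.10 to 16.56), and of 10 endothelial markers 3 rose and none fell. Mast cell markers rose in 4 of 7 and fell in none, with Tpsab1, a tryptase, higher by 2.44 (SE 0.40). Of 5 B and plasma cell markers 2 fell, of 8 skeletal muscle markers 6 fell (median -2.60) and of 5 adipocyte markers 4 fell (median -2.09), with none higher in these lists. Basal keratinocyte markers rose in 3 of 7 and fell in 1, fibroblast markers fell in 1 of 7, and no neutrophil or liver marker passed. The plasmacytoid dendritic list rose in 1 of 3, Ccr9, whose NT mean of 6.77 lies under the table's median, with Siglech and Tcf4 constant. Bst2 and, by its varying probe set, Irf8 also mark these cells but were left out as members, and both fell, Bst2 not in every setting. The part of these cell markers, and of the beta-actin control, in the fall of interferon-inducible genes was not tested. With the WB arrays left out of the fit 28 members fell and 1 rose.

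By the labels, WB mice received the extract on top of the stripping given to TS mice. The TS arrays are shared with the comparison above. Here members moved in both directions, as did the genes of the whole array. Of 45 on the array 14 fell (31.1%) and 12 rose (26.7%), where 14.8% of all genes fell and 18.2% rose (39.2% and 48.4% of genes that varied). The median difference over measured members was -0.02, against 0.16 over measured genes of the whole array. The groups did not overlap for 12 members that were lower and 7 that were higher in WB, beside 13% and 15.5% of all genes. The share of the 7 lies near that of all genes. After median centring 14 fell and 26 rose, and after quantile normalization 13 fell and 26 rose, with 13 of the rises in each being constant probe sets shifted by the scaling. In the type I class 10 of 32 fell and 8 rose, and in the gamma class 3 of 11 fell and 4 rose. Within the gamma class the roles differed in their counts. Of 7 GTPases 4 rose and none fell, while of 4 antigen processing members 3 fell and none rose. These counts use the chosen probe sets. The rise of Gbp2 is among them, although its other varying probe set fell by 1.63 (SE 0.19). Gbp3 did not pass without WB 6 or with the replicate block, nor Tap1 after quantile normalization. These values stand beside the actin control difference of 5.69 in WB against 0.16 in TS, whose part was not tested.

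Ifitm3 showed the largest difference, from 11.96, 12.07 and 12.54 in TS to 7.20, 7.65 and 8.10 in WB, a fall of 4.47 (SE 0.15) or 22.1-fold. Ifi27l2a fell a further 2.62 (SE 0.37) to 6.48, 6.72 and 7.18, with a mean below the table's median. Psmb9 fell by 2.24 (SE 0.16) to 6.17, 6.26 and 6.57, also below the median. In each of these genes every WB array lay under every TS array. Ifi27 lay at 7.79, 8.23 and 8.30 in WB and fell by 1.87 (SE 0.14), while its further probe set fell by 3.62 (SE 0.14). Lgals3bp lay at 6.55, 6.90 and 7.14 in WB, with a mean below the table's median, and fell by 1.82 (SE 0.18).

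Parp9 fell by 1.12 (SE 0.11) to 6.88, 7.09 and 7.58 in WB, with the groups apart. Tap2 fell by 0.91 (SE 0.12) to 6.83, 7.03 and 7.63, and Irf1 by 0.86 (SE 0.07) to 8.06, 8.16 and 8.24. Usp18 (-0.66, SE 0.16), Zbp1 (-0.50, SE 0.13), Xaf1 (-0.39, SE 0.09), Bst2 (-0.70, SE 0.26), Oasl2 (-0.46, SE 0.17) and Tap1 (-0.20, SE 0.05; 7.97, 8.01 and 8.04 in WB) were the other falls. The WB means of Usp18, Zbp1 and Oasl2 lie below the table's median. Irf8, by its varying probe set, fell by 0.50 (SE 0.15). Psmb8 (0.03, SE 0.18), Igtp (-0.17, SE 0.13), Irf9 (-0.07, SE 0.13), Iigp1 (0.54, SE 0.35), Ifit1 (0.40, SE 0.28) and Oas1a (0.07, SE 0.03) did not pass. The Iigp1 arrays of WB spread from 7.48 over 8.40 to 9.38, those of Psmb8 from 8.39 over 8.90 to 9.39 and those of Irf9 from 7.54 over 7.69 to 8.15. Those of Ifit1 lay at 6.73, 6.81 and 7.72.

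Gbp7 rose most, from 7.99, 8.31 and 8.50 in TS to 8.82, 9.49 and 9.96 in WB, by 1.19 (SE 0.19), with the groups apart and a further probe set that rose by 0.52 (SE 0.14). Ifih1 rose by 1.05 (SE 0.19) from 7.41, 7.84 and 8.12 to 8.59, 8.76 and 9.49. Rsad2 (0.94, SE 0.26), Rtp4 (0.81, SE 0.28), Parp14 (0.73, SE 0.09), Samd9l (0.66, SE 0.13), Gbp6 (0.60, SE 0.20), Gbp3 (0.53, SE 0.18), Ifitm1 (0.44, SE 0.17) and Ifit2 (0.43, SE 0.12) also rose, as did Dtx3l by its varying probe set (0.41, SE 0.07). Rtp4 lay at 7.80, 8.08 and 9.17 in WB, and Gbp6 at 7.30, 7.83 and 8.19.

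For a pair of members the direction depended on the probe set. Gbp2 lay at 8.11, 9.21 and 9.68 in WB and rose by 0.94 (SE 0.27) on its chosen probe set, whereas its other varying probe set fell by 1.63 (SE 0.19). Ifi35 lay at 10.10, 10.23 and 10.46 in WB and rose by 0.24 (SE 0.06), whereas its other varying probe set fell by 1.67 (SE 0.07). Of the 5 members with a second varying probe set, both probe sets had the same sign in all 5 for TS against NT and in 3 for WB against TS. Probe sets of a gene target different stretches of its transcripts.

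**Figure D5:**
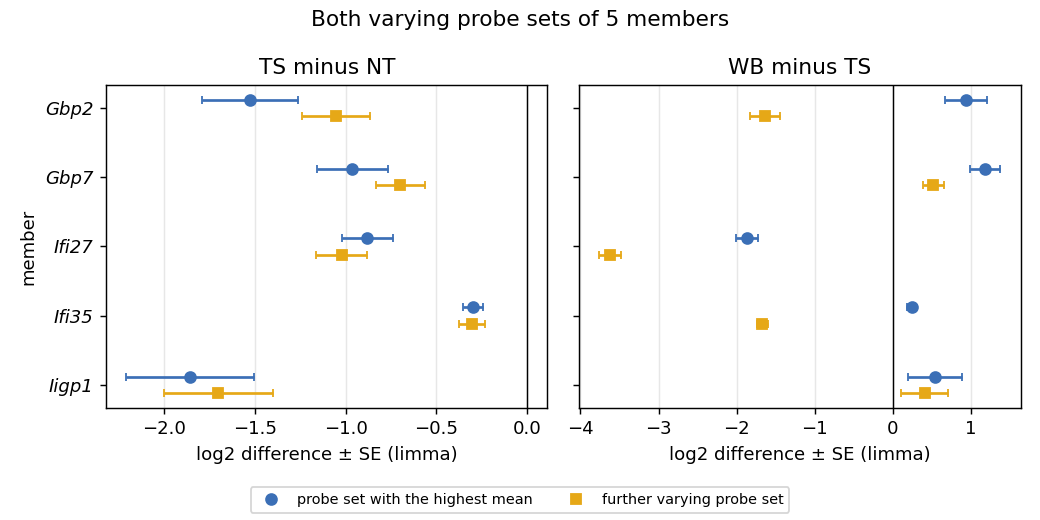
Log2 differences with limma SE of the 5 members with 2 varying probe sets, circles for the probe set with the highest mean and squares for the further one. In TS minus NT both lie left of 0 for every gene, and in WB minus TS the symbols of Gbp2 and Ifi35 lie on opposite sides of 0.

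Several of these calls turned on 1 array or setting. Ifitm1 did not pass with a trended robust prior (adjusted p = 0.0508), in the fit of TS and WB alone (0.106), or without any 1 of the 6 NT arrays (0.0518 to 0.0551), TS 1, TS 2, TS 3, TS 4 or TS 6 (0.0733 to 0.102), WB 1, WB 4 or WB 6 (0.0768 to 0.101). Bst2 did not pass in the fit of TS and WB alone (adjusted p = 0.0608), nor without TS 3, TS 4, TS 6, WB 1, WB 2 or WB 6 (0.0651 to 0.094). Oasl2 did not pass without TS 1, TS 3, TS 5, TS 6, WB 1, WB 4, WB 5 or WB 6 (adjusted p = 0.0532 to 0.081), nor Rtp4 without TS 2, WB 2 or WB 6 (0.0546 to 0.0593), nor Gbp3 without WB 6 (0.054), nor Tap1 after quantile normalization (0.164). Oas1a rose after quantile normalization (0.20), after median centring (0.11) and without TS 4 (0.09, adjusted p = 0.038).

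Other pathway genes also went both ways between WB and TS, with 28 of 95 lower (29.5%, against 14.8% of all genes) and 14 higher (14.7%, against 18.2%). Ifitm2, another gene of the Ifitm family, fell by 4.53 (SE 0.11), the proteasome activator subunit Psme1 by 3.15 (SE 0.08) and the signalling factor Stat3 by 1.58 (SE 0.04). Of 17 antigen processing genes 10 fell and 2 rose, and of 9 innate trigger genes, which include the adaptors Myd88 and Mavs, 4 rose and 1 fell. Ifngr1 fell by 1.80 (SE 0.07) and Ifnar2 by 0.25 (SE 0.06). Macrophage markers fell in 10 of 13 and rose in 2 (13.76 to 14.14 in WB), Langerhans and dendritic cell markers fell in 8 of 12 and rose in 1 (12.55 to 12.99), and basal keratinocyte markers fell in 5 of 7 and rose in 2. The Langerhans and dendritic falls again include the shared antigen processing genes H2-Ab1 and Cd74, and the rise is that of H2-Aa. Falls were found in most other lists too, in 7 of 7 mast cell, 4 of 10 endothelial, 4 of 7 fibroblast (1 rose), 5 of 8 skeletal muscle, 3 of 5 adipocyte (1 rose), 2 of 5 neutrophil and 2 of 11 T and NK cell markers. Beside these counts, 14.8% of all genes fell and 18.2% rose (39.2% and 48.4% of genes that varied). The T and NK cell share (18.2%) lies near that of all genes. Suprabasal keratinocyte markers fell in 3 of 10 and rose in 2, and no B, plasma cell or liver marker passed. The plasmacytoid dendritic list rose in 1 of 3, Ccr9, with Siglech and Tcf4 constant. The members Bst2 and, by its varying probe set, Irf8 were left out of it and fell, Bst2 not in every setting.

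Set against unstripped skin, WB skin had 19 of 45 members lower and 2 higher, where 15.5% of all genes were lower and 17.6% higher (41.3% and 46.9% of genes that varied). The type I class had 11 of 32 lower and 2 higher, and the gamma class 7 of 11 lower and none higher. The groups did not overlap for 16 lower members and 1 higher, beside 14.1% and 16.2% of all genes. The largest falls were those of Ifi27l2a (5.93, SE 0.37) and Ifitm3 (5.30, SE 0.15), the latter 39.3-fold. Psmb9 fell by 3.58 (SE 0.16), Ifi27 by 2.75 (SE 0.14; further probe set 4.64, SE 0.14), Lgals3bp by 2.64 (SE 0.18), Bst2 by 1.58 (SE 0.26), Parp9 by 1.55 (SE 0.11) and Tap2 by 1.55 (SE 0.12). Bst2 arrays lay at 8.31, 8.73 and 9.54 in NT, at 7.70, 7.88 and 8.28 in TS and at 6.45, 7.30 and 8.15 in WB. Parp9 arrays lay at 8.36, 8.70 and 9.005 in NT and at 8.12, 8.27 and 8.39 in TS, and Tap2 arrays at 8.47, 8.65 and 8.84 in NT and at 7.78, 8.05 and 8.25 in TS. All 4 antigen processing members fell, with Psmb8 lower by 1.14 (SE 0.18) and Tap1 by 0.27 (SE 0.05).

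Irf1 fell by 1.36 (SE 0.07) and Irf9 by 0.48 (SE 0.13) against NT, and Usp18, Oasl2, Zbp1 and Xaf1 fell by 1.34, 1.22, 1.18 and 1.03. Of the GTPases, Iigp1 (-1.31, SE 0.35), Igtp (-0.73, SE 0.13) and Gbp6 (-0.60, SE 0.20) fell, while Gbp3 (-0.35, SE 0.18) and Gbp7 (0.22, SE 0.19) did not pass. Gbp2 did not pass on its chosen probe set (-0.59, SE 0.27), but its other varying probe set fell by 2.68 (SE 0.19, limma adjusted p = 4.36e-09), and their mean fell as well (-1.64, adjusted p = 9.32e-06). Gbp6 missed the threshold in the fit of NT and WB alone (adjusted p = 0.0575). On the chosen probe set Gbp2 passed when only varying probe sets were tested (adjusted p = 0.0374), without NT 5 (-0.71, adjusted p = 0.0413) or WB 6 (-0.72, adjusted p = 0.038), and Gbp3 passed without WB 6 (-0.47, adjusted p = 0.0299).

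Ifitm1 rose by 1.19 (SE 0.17) and Parp14 by 0.24 (SE 0.09, adjusted p = 0.0452). Parp14 did not pass without NT 1, NT 2, NT 5, NT 6, TS 1, TS 3, TS 4, TS 5, TS 6, WB 2, WB 4 or WB 6, nor with array weights, a trended robust prior or NT and WB alone (adjusted p = 0.0502 to 0.108 over these). Ifit2 (0.02, SE 0.12), Ifih1 (0.36, SE 0.19), Rsad2 (0.52, SE 0.26), Samd9l (-0.09, SE 0.13), Rtp4 (-0.36, SE 0.28), Oas1a (-0.07, SE 0.03) and Ifit1 (-0.66, SE 0.28) did not pass. Ifi35 did not pass on its chosen probe set (-0.06, SE 0.06), but its other varying probe set fell by 1.98 (SE 0.07, limma adjusted p = 1.15e-12), and their mean fell too (-1.02, adjusted p = 1.06e-10). Ifit1 passed without NT 1, NT 5, WB 2 or WB 6 (adjusted p = 0.0109 to 0.0436), after median centring (0.0384), among varying probe sets only (0.0268) and with array weights (0.0379). Rsad2 passed without NT 4 or NT 6 (adjusted p = 0.0376 and 0.0303), after quantile normalization (0.0248) and after median centring (0.0481). Ifih1 passed after quantile normalization (0.47, adjusted p = 0.0222). Oas1a was lower without NT 1 or WB 6 (adjusted p = 0.0467 and 0.045) and with array weights (0.0302), and higher after quantile normalization (0.0751, adjusted p = 0.0488). Among other pathway genes 32 of 95 were lower (33.7%, against 15.5% of all genes) and 10 higher (10.5%, against 17.6%), with Ifitm2 (-4.78, SE 0.11), Psme1 (-3.37, SE 0.08) and the receptor kinase Jak1 (-2.54, SE 0.07) having the smallest p. All WB arrays stand apart in the actin control by 6.19 from NT, whose part in these values was not tested.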

How the data were processed

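The deposited table holds 1 log2 value per probe set for each of 18 arrays. The authors' summarising and normalizing method and the base of the logarithm are not given in the sources used here; log2 was read from the range of 2.93 to 19.04. Per the labels' protocols, RNA was extracted with Isogen and RNeasy columns and labelled from 100 ng. Of 45101 probe sets 64 Affymetrix controls were left out and 45037 tested. Gene names come from GEO's platform annotation, with 34945 probe sets naming 1 gene, 932 several (none named) and 9160 none.

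A single limma fit (version 3.58.1, R 4.3.3; lmFit, then eBayes) of all 18 arrays on group alone gave the differences and two-sided p-values, which were adjusted by Benjamini and Hochberg's method for all 45037 tests. The fit was tested on simulated data with independent noise and differences put into TS only. That setting lacks the RNA control shift of WB and the shared variation of members within groups. It therefore bears neither on the WB comparisons nor on the counts of members. All adjusted p-values of genes are from limma. The samples are described as biological replicates. Counts of members are out of those on the array; medians are over measured members. Marker levels are the log2 of summed linear values, members left out. The members, classes and lists were chosen with earlier results of these data known, so no test was made over a list. Every measured member is named; values by array are given for the 8 largest differences that passed in each comparison, the interferon factors, Ifit1, Tap1, Psmb8, Psmb9 and members with further varying probe sets. Alternatives were other scalings, filters, weights, priors, sample sets, the replicate number as a block, the mean of a gene's varying probe sets, and each array left out. The labels do not say that replicate numbers pair the arrays, so the main fit has no block.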

Additional observations from a re-analysis of the deposited data

Results flagged for a closer look

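In 102 groups of 6 arrays (32 members and 2 RNA controls in 3 groups), 3 single arrays stood apart from the other 5, where chance flags about 1 in 20 groups. For Ifitm1, array TS 5 stood at 10.16, while the other TS arrays lay between 8.98 and 9.26. For Ifitm3, the same array stood at 12.54, while the others lay between 11.96 and 12.10. For the Gapdh 3' minus 5' control difference, array WB 2 stood at 4.41, while the other WB arrays lay between 3.45 and 3.71.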

How the results depend on the processing

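Over 27 alternatives, of which 18 leave out 1 array, 29 of 32 measured members kept their call in TS against NT, 23 in WB against TS and 23 in WB against NT. Leaving out 1 array, 26 to 29 members fell and 1 rose in TS against NT, 12 to 14 fell and 9 to 12 rose in WB against TS, and 19 to 23 fell and 1 to 3 rose in WB against NT. After quantile normalization 3 members rose in TS against NT, 2 of them constant, 26 rose in WB against TS and 18 in WB against NT. After median centring 26 and 16 rose in the latter comparisons. In both scalings 13 of those rises are constant probe sets. In WB against NT, 1 member rose with array weights, with a trended robust prior and in the fit of the 2 groups alone.

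With the mean of varying probe sets, Ifi35 (-0.72) and Gbp2 (-0.35, adjusted p = 0.223) turned negative in WB against TS, because their probe sets disagree. After quantile normalization Oas1a turned positive in WB against NT (0.0751, adjusted p = 0.0488); the cause was not tested. With Gapdh in place of actin the 3' minus 5' difference between TS and NT was 0.15 and did not pass.

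With the replicate block 29 members fell and 1 rose in TS against NT, 14 fell and 11 rose in WB against TS, and 21 fell and 2 rose in WB against NT. Under it Ifitm1 (adjusted p = 0.0594) and Gbp3 (0.0576) did not pass in WB against TS, nor Parp14 (0.0686) in WB against NT, while Oas1a passed in both (0.0186 and 0.0201) and Ifit1 (0.0449) and Rsad2 (0.0375) in the latter. Arrays of the same number correlated at -0.13 to 0.127 between NT and TS in their deviations from group means, and 2 of 6 TS arrays correlated best with their own number. Between NT and WB the range was -0.051 to 0.138, and 4 of 6 WB arrays correlated best with their own number. Between TS and WB it was -0.268 to 0.048, and 0 of 6 did so. Whether the numbers mark a shared litter, batch or day is not said in the labels.

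The table holds no background measure, so differences of the 7 members whose mean lies under the table's median in some group are uncertain in size. These members are Ifit1, Oasl2, Zbp1, Usp18, Ifi27l2a, Lgals3bp and Psmb9. The RNA control separates all WB arrays from the others.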
